A study of Mus musculus with 12 samples.

Results

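Mt1, Mt2, Mtf1, Slc30a1 and Slc39a10 encode 2 proteins that bind zinc, the factor that reads zinc and 2 zinc transporters, and their RNA was measured in sorted blood progenitors with and without Lamtor2. The genes were taken by symbol from the 19937 genes that the arrays measured with a probe set of a single gene symbol, and each of the 5 had 1 probe set. Mt1 and Mt2 were chosen by their log2 difference between knockout and wild-type LSK cells, in which they were higher in the knockout. Values of these 2 genes that involve LSK arrays are therefore descriptions and carry no test. The comparison of knockout with wild-type GMP cells is the one in which all 5 genes were tested. Its differences come from GMP arrays alone. Its standard errors and p-values also draw on the spread within the LSK groups, except in a fit on the GMP arrays alone.

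The 12 arrays fall into 4 groups of 3. LSK cells, sorted as Lin- Sca1+ c-kit+, contain stem cells and multipotent progenitors. Progenitors committed to granulocytes and macrophages, GMP, were sorted as CD34+ FcγR+ cells among the Lin- Sca1- c-kit+ fraction. Both were sorted from the bone marrow of 3 C57BL/6J Mx-Cre mice with wild-type Lamtor2 (WT) and 3 C57BL/6J Mx-Cre mice with floxed alleles, Lamtor2 f/f (KO). Every mouse, wild type included, received pIpC by intraperitoneal injection, and cells were taken at day 14. The strain labels write Mx1-Cre wt/wt for both genotypes, and they give neither the age of the mice nor which LSK and GMP arrays came from the same mouse. The Mx1 promoter responds to interferon in blood cells and in other tissues, and the labels do not restrict the deletion to the sorted cells. pIpC itself raises interferon, and control and knockout mice share that exposure. Lamtor2 encodes a subunit of the Ragulator complex, which holds the nutrient sensor mTORC1 at the lysosome.

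Metallothioneins are small cysteine-rich proteins that hold zinc and copper and take up cadmium. When free zinc rises, the zinc-finger factor MTF-1, encoded by Mtf1, binds metal response elements in front of metallothionein genes and of Slc30a1. Slc30a1 encodes ZnT1, which exports zinc through the plasma membrane, whereas Slc39a10 encodes ZIP10, which imports it, and MTF-1 is known to restrain Slc39a10. Metallothionein genes also respond to glucocorticoids, to cytokines that act through STAT3 and to oxidants, and metallothionein is found in macrophages as well as in progenitors.

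The sequences in front of Mt1 and Mt2 are shown because the text that follows counts metal response elements in them. They are the 250 bases before each annotated start, from RefSeq on build GRCm38.p6, on the plus strand, 5′ to 3′, with matches to the core of a metal response element in capitals. The core was searched as TGCACNC and TGCGCNC, on both strands. Each match was counted, and a match on the opposite strand appears here as its reverse complement. The Mt1 sequence lies at chr8:94178839-94179088 and the Mt2 sequence at chr8:94172368-94172617, and the annotated starts are 6471 bases apart on the same strand.
Mt1: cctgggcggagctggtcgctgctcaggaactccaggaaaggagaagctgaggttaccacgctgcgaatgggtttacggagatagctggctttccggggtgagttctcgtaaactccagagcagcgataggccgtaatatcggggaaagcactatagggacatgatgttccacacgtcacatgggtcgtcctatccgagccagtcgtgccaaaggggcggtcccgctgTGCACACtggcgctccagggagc
Mt2: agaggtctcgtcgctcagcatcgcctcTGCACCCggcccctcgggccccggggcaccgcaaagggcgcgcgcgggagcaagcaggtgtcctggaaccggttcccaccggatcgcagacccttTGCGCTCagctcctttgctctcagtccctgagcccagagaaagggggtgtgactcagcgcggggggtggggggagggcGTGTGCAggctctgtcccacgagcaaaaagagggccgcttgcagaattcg

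Before its start, Mt1 had 1 match, from position -23 to -17 counted from the start, and Mt2 had 3, at -223 to -217, -128 to -122 and -50 to -44, the last on the opposite strand. The 50 bases that follow the annotated start held a further 2 matches in Mt1 (bases 3 to 9 and 21 to 27). In Mt2 they held 1, on the opposite strand (bases 5 to 11). Whether transcription in these cells begins at the annotated starts was not tested. All of these sites and the pair at Slc30a1, both on its opposite strand at -43 to -37 and at bases 31 to 37, are shown with 8 bases on either side, written along the plus strand, since they let the cores of the 3 genes be compared.
Mt1, before the start, chr8:94179058-94179080: tcccgctgTGCACACtggcgctc
Mt1, base 3, chr8:94179083-94179105: gggagctcTGCACTCcgcccgaa
Mt1, base 21, chr8:94179101-94179123: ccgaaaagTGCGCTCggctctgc
Mt2, before the start at -223, chr8:94172387-94172409: atcgcctcTGCACCCggcccctc
Mt2, before the start at -128, chr8:94172482-94172504: agacccttTGCGCTCagctcctt
Mt2, before the start at -50, chr8:94172560-94172582: gggagggcGTGTGCAggctctgt
Mt2, base 5, chr8:94172614-94172636: ttcgggtcGTGCGCAggcccagg
Slc30a1, before the start, chr1:191906730-191906752: ggggttccGAGTGCAaagcaaag
Slc30a1, base 31, chr1:191906803-191906825: tccgggccGAGCGCAgtcgccgc

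Over the whole 300-base window, from 250 bases before to 50 after the start, Mt2 held 4 matches, Mt1 held 3 and Slc30a1 held 2. Among 32851 such windows of mouse genes, 25.7% held at least 1 match, 7.11% at least 2, 1.97% at least 3 and 0.517% at least 4. The window of Mtf1 and both annotated windows of Slc39a10 held 0. An antioxidant response element, searched as TGACNNNGC on both strands, occurred once in the window of Mt2 and once in that of Slc30a1 and was not found in those of Mt1, Mtf1 or Slc39a10. At least 1 such match was present in 12.4% of all windows. The matches are letters in a window, and no binding was measured. Bases beyond each window were not searched, so these counts do not show that a gene lacks an element elsewhere.

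**Figure D1:**
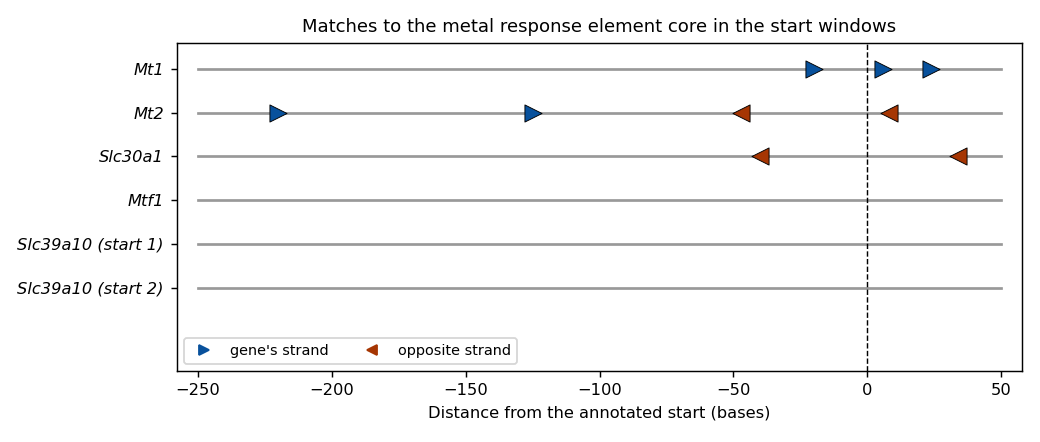
Matches to the core of a metal response element along the promoter windows of Mt1, Mt2, Slc30a1, Mtf1 and Slc39a10 (both annotated starts), with distance from the annotated start in bases on the x axis and the strand of each match marked. Mt2 has 3 matches before its start and 1 after it, Mt1 has 1 before and 2 after, Slc30a1 has 1 on each side, and the windows of Mtf1 and Slc39a10 have none.

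In wild-type LSK cells, the log2 intensities of Mt1 (probe set 10574027) were 8.67, 7.77 and 6.96 on replicates 1, 2 and 3. Those of knockout LSK cells were 11.70, 11.19 and 11.20. The difference that chose the gene was 3.56 on the log2 scale (SE 0.31), or 11.8-fold, and the lowest knockout array lay above the highest wild-type array. Mt2 (probe set 10574023) read 8.83, 7.53 and 6.72 in wild-type LSK and 11.57, 10.37 and 10.11 in knockout LSK, a difference of 3.00 (SE 0.49), or 7.97-fold. Again the groups did not overlap. Wild-type LSK arrays were the most scattered group for both genes, with an SD of 0.86 for Mt1 and 1.07 for Mt2 (n = 3).

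In GMP cells, where these genes had not been chosen, both metallothioneins rose with loss of Lamtor2, Mt2 by 21.5-fold and Mt1 by 3.07-fold. Mt2 was at 7.22, 6.22 and 5.93 in wild-type GMP and at 11.15, 10.61 and 10.90 in knockout GMP. The difference was 4.43 (SE 0.49, 95% interval 3.38 to 5.48, n = 3 in each group), with an adjusted p of 5.91e-05 in limma's moderated test with Benjamini-Hochberg adjustment over all genes. Mt1 was at 10.40, 10.06 and 9.89 in wild-type GMP and at 11.82, 11.58 and 11.81 in knockout GMP. Its difference was 1.62 (SE 0.31, 95% interval 0.95 to 2.29), with a limma adjusted p of 0.00337. All 3 knockout arrays lay above all 3 wild-type arrays for both genes. The p-values rest on the spread within the 4 groups of arrays, LSK included, from 3 mice a genotype. Both genes also passed in a fit on the GMP arrays alone. In sorted pools a larger share of cells with a transcript and more RNA per cell cannot be told apart.

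Of the 5 genes, 4 passed the threshold of an adjusted p of 0.05 in GMP, Mt1 and Mt2 upward and Mtf1 and Slc39a10 downward. Among all genes, 16.1% passed in that comparison, 5.78% upward and 10.3% downward. The knockout and wild-type GMP arrays did not overlap for the same 4 genes, as for 29.6% of all genes. In LSK, 0 of the 3 genes not chosen there passed that threshold in limma, against 4.44% of all genes (2.49% upward and 1.96% downward). None of the 3 had an unadjusted p under 0.05 there. The LSK arrays of the genotypes did not overlap for 2 of the 5 genes, the 2 that were chosen, and for 25.5% of all genes.

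**Figure D2:**
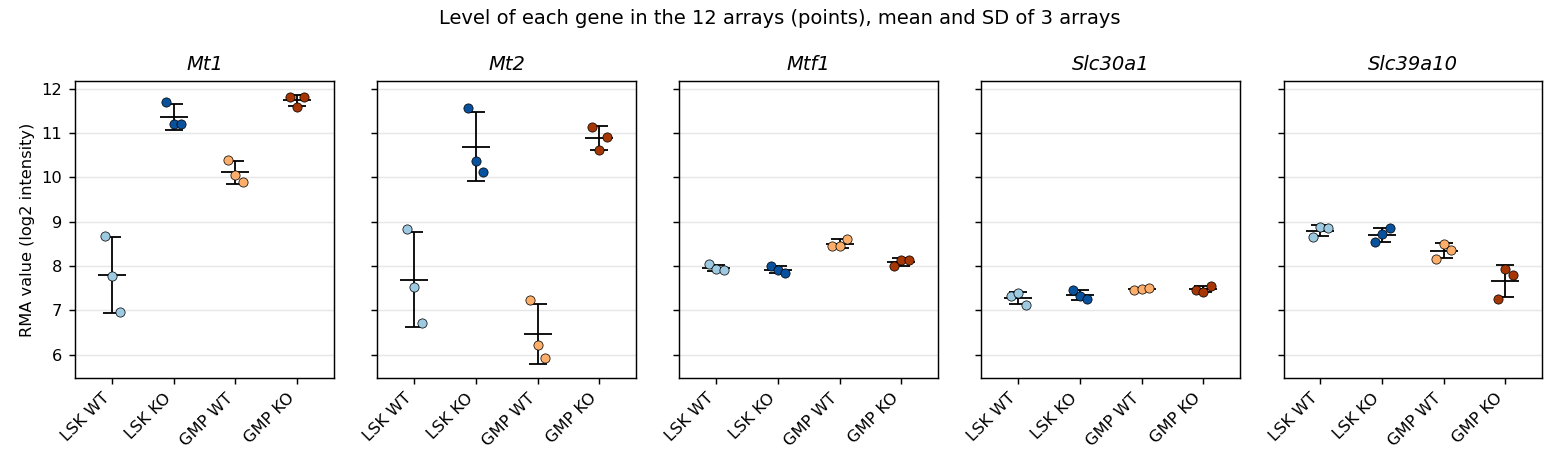
Deposited log2 intensity of Mt1, Mt2, Mtf1, Slc30a1 and Slc39a10 on each of the 12 arrays (y axis) by group (x axis), with points for arrays and bars for the group mean and SD (n = 3). Mt1 and Mt2 separate by genotype in both populations, Mtf1 and Slc39a10 are lowered in knockout GMP, and the Slc30a1 groups lie between means of 7.28 and 7.49.

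The 4 groups ranked differently for the metallothioneins. For Mt1 the order of means was knockout GMP at 11.74 ± 0.13, knockout LSK at 11.36 ± 0.29, wild-type GMP at 10.12 ± 0.26 and wild-type LSK at 7.80 ± 0.86 (SD, n = 3). For Mt2 it was knockout GMP at 10.89 ± 0.27, knockout LSK at 10.69 ± 0.78, wild-type LSK at 7.69 ± 1.07 and wild-type GMP at 6.46 ± 0.68. The arrays of the knockout populations overlapped for both genes, and those of the wild-type populations overlapped for Mt2 alone. The positions of the wild-type populations were thus exchanged: wild-type LSK was 2.32 below wild-type GMP for Mt1 and 1.23 above it for Mt2. Between the knockout populations the differences, LSK minus GMP, were -0.37 for Mt1 and -0.20 for Mt2. Without LSK knockout replicate 3 the Mt2 value was 0.087, so its sign rests on single arrays.

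The 2 metallothioneins changed unequally in GMP. The log2 ratio of Mt1 to Mt2 within an array was 3.18, 3.84 and 3.96 in wild-type GMP and 0.67, 0.98 and 0.91 in knockout GMP. The mean ratio differed by -2.81, knockout minus wild type, and the arrays did not overlap. An exact two-sided permutation test gave p = 0.1, the smallest that 3 arrays against 3 allow. In LSK the ratio was -0.16, 0.25 and 0.24 in wild-type and 0.12, 0.82 and 1.08 in knockout cells, and these arrays overlapped. A ratio between probe sets has no absolute meaning, and only its change between groups is read. Hybridisation of 1 metallothionein's RNA to the probes of the other was not tested.

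Replicate 1 was the highest array of its group in 4 of 4 groups for Mt1 and in 4 of 4 for Mt2. The step was small for Mt1 in knockout GMP, 11.82 against 11.81, and wide in wild-type LSK, 8.67 against 7.77. What the replicate numbers share is not stated in the labels.

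**Figure D3:**
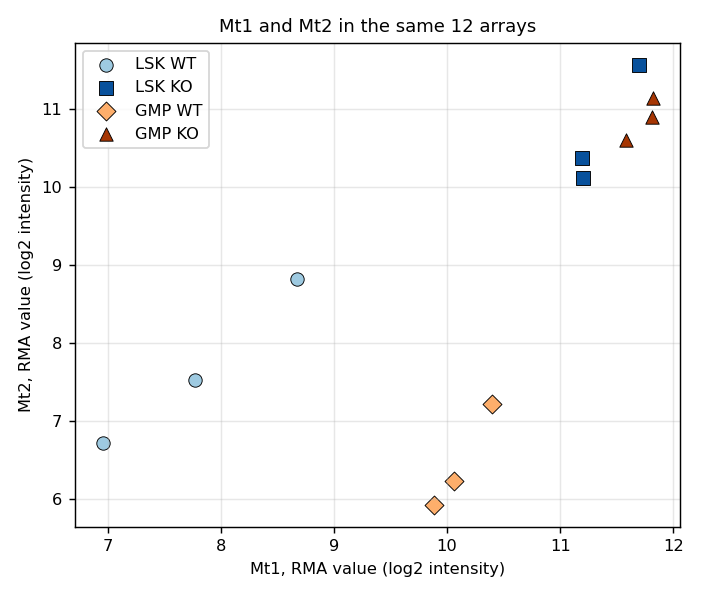
Mt2 against Mt1, both as deposited log2 intensity, 1 point for each of the 12 arrays and coloured by group. Knockout arrays of both populations lie at the upper right, and wild-type GMP arrays lie apart from wild-type LSK arrays, with Mt1 at 9.89 or above and Mt2 at 7.22 or below.

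Mt3 and Mt4, the family members best known from brain and from stratified epithelium, did not follow. Mt3 differed by 0.19 (SE 0.11) in GMP, with a limma adjusted p of 0.316, and by -0.08 in LSK. The Mt4 difference was also 0.19 in GMP (SE 0.13, limma adjusted p 0.368) and 0.03 in LSK. Group means of Mt4 lay between 4.64 and 4.83.

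Mtf1 (probe set 10507961), which encodes the zinc-sensing activator of both metallothionein genes, fell in GMP while they rose. It read 8.45, 8.44 and 8.62 in wild-type and 7.99, 8.14 and 8.13 in knockout GMP, and the groups did not overlap. The fall was 0.41 on the log2 scale (SE 0.091), 1.33-fold, with a limma adjusted p of 0.00756. A fit on the 6 GMP arrays alone gave an adjusted p of 0.0507. In LSK, wild-type arrays were at 8.04, 7.93 and 7.91 and knockout arrays at 7.996, 7.91 and 7.85. The LSK difference was -0.04 (95% interval -0.24 to 0.16, limma adjusted p 0.913), and those arrays overlapped. The knockout effect in LSK minus that in GMP was 0.37 (SE 0.13), which did not pass (limma adjusted p 0.101, or 0.0397 with each array centred on its gene median). In that comparison 0 of the 3 genes tested passed in limma, 2 had an unadjusted p under 0.05, and 7.98% of all genes passed.

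Wild-type GMP carried the most Mtf1 RNA of the 4 groups. Wild-type LSK was 0.54 below it (SE 0.091, limma adjusted p 7.16e-04), the only 1 of the 3 tested genes to pass between the wild-type populations, where 19.6% of all genes did. Knockout GMP, wild-type LSK and knockout LSK followed with means of 8.09, 7.96 and 7.92, each overlapping its neighbour, and the difference between the knockout populations was -0.17 (limma adjusted p 0.22), or -0.29 with quantile normalization repeated, which passed (0.0453).

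Slc30a1 (probe set 10352777), the zinc exporter gene that MTF-1 activates, did not pass the test in any of the 5 comparisons as fitted. Its arrays were at 7.46, 7.49 and 7.51 in wild-type GMP and at 7.45, 7.42 and 7.55 in knockout GMP, and they overlapped. The GMP difference was -0.01 (SE 0.096, 95% interval -0.22 to 0.19, limma adjusted p 0.954), an interval that holds changes of up to about 0.2 either way and none as large as those of Mt1 or Mt2. In LSK, wild-type arrays were at 7.33, 7.39 and 7.12 and knockout arrays at 7.46, 7.31 and 7.26. That difference was 0.06 (95% interval -0.15 to 0.27, limma adjusted p 0.868). The order of group means was wild-type GMP, knockout GMP, knockout LSK and wild-type LSK, at 7.49, 7.47, 7.34 and 7.28, and no pair of neighbours was separated. Wild-type LSK arrays lay below all wild-type GMP arrays, by a mean of 0.20, which did not pass (limma adjusted p 0.179) but did with each array centred on its gene median (-0.30, limma adjusted p 0.0408).

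Slc39a10 (probe set 10354389), the zinc importer gene that MTF-1 restrains, fell in GMP. Wild-type arrays were at 8.17, 8.50 and 8.36 and knockout arrays at 7.25, 7.93 and 7.80, so that the groups did not overlap and knockout replicate 1 was the lowest of all. It fell by 0.68 (SE 0.16, 95% interval -1.03 to -0.34), 1.61-fold, with a limma adjusted p of 0.0103. The adjusted p was 0.0572 without wild-type GMP replicate 2 and 0.0529 in a fit on the GMP arrays alone. In LSK the arrays were at 8.66, 8.87 and 8.87 in wild type and at 8.54, 8.71 and 8.85 in knockout, a difference of -0.098 (95% interval -0.44 to 0.25, limma adjusted p 0.870). The effect in LSK minus that in GMP was 0.59 (SE 0.23), which did not pass (limma adjusted p 0.142, and 0.0461 with the replicate number as a block).

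By level, Slc39a10 stood higher in LSK than in GMP. Knockout LSK was above knockout GMP by 1.04 (SE 0.16, limma adjusted p 8.06e-04), and Slc39a10 was 1 of the 3 tested genes to pass there, where 15.8% of all genes passed. Wild-type LSK was above wild-type GMP by 0.46, which did not pass (limma adjusted p 0.0626), although those arrays did not overlap. It did pass without knockout GMP replicate 1 or 2, at 0.0076 and 0.0409, and with array weights at 0.00412. The order of means was wild-type LSK at 8.80, knockout LSK at 8.70, wild-type GMP at 8.34 and knockout GMP at 7.66, and the LSK groups overlapped.

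The other zinc transporters were surveyed as whole families, all 24 of whose listed genes were measured. As families, SLC30 proteins move zinc out of the cytosol and SLC39 proteins move it in. The genes were counted by family name, and the metal that each protein carries was not measured. In GMP, 1 of the 24 rose and 3 fell, Slc39a10 among them, a share close to the 16.1% of all genes that passed there. Of 10 SLC30 genes, 0 rose and 1 fell in GMP, with a median difference of -0.0047, against 0.015 over all genes. Of 14 SLC39 genes, 1 rose and 2 fell, with a median of -0.061. In LSK the SLC30 count was 0 either way (median 0.011), and 1 SLC39 gene rose (median -0.085), against a median of -0.013 over all genes, of which 4.44% passed. At an unadjusted p under 0.05, 2 SLC30 genes were higher and 0 lower in LSK, and 1 was higher and 2 lower in GMP. For SLC39 genes those counts were 2 higher and 0 lower in LSK, and 2 higher and 4 lower in GMP.

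Slc30a6, which serves zinc entry into the secretory pathway, fell in GMP by 0.50 (SE 0.14, limma adjusted p 0.0242). It no longer passed without knockout replicate 1, wild-type replicate 1 or wild-type replicate 2 (0.0608, 0.0606 and 0.113). Slc39a11 fell by 0.37 (SE 0.090, limma adjusted p 0.0122, or 0.0539 without wild-type replicate 2 and 0.0552 with quantile normalization repeated). Slc39a2 rose by 0.50 (SE 0.15, limma adjusted p 0.038), a call lost without knockout GMP replicate 1, wild-type GMP replicate 1 or wild-type GMP replicate 2 (0.110, 0.0684 and 0.172). It was also lost without knockout LSK replicate 3 or any 1 wild-type LSK array (0.0511 to 0.0533), with quantile normalization repeated (0.0514) and with array weights (0.0783). In LSK, Slc39a6 rose by 0.47 (SE 0.10, limma adjusted p 0.0181), from arrays at 8.61 to 8.78 to arrays at 9.13 to 9.24. Its GMP difference was -0.12, and the difference between the effects passed (0.59, SE 0.15, limma adjusted p 0.0253). The LSK call was lost without knockout LSK replicate 2 or 3 or wild-type LSK replicate 1 or 2 (adjusted p 0.0553, 0.0807, 0.0853 and 0.0623). Each of these changes was smaller in size than the fall of Slc39a10 in GMP.

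Between wild-type LSK and wild-type GMP, 4 of the 24 transporters passed, a share below the 19.6% of all genes. They were chosen for naming after their values were seen. Slc30a4 was higher in LSK by 1.26 and Slc39a1 by 0.52, and Slc30a5 differed by -0.62 and Slc39a7 by -0.50.

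**Figure D4:**
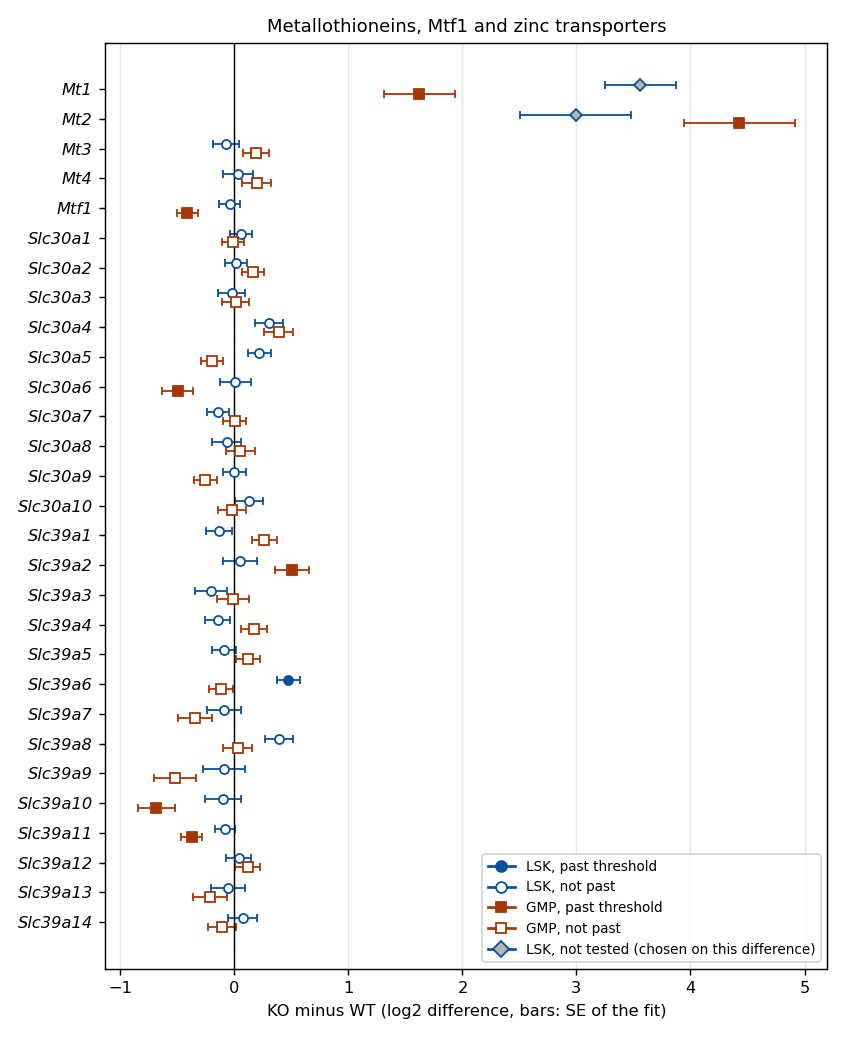
Knockout minus wild-type difference in log2 intensity (x axis) for the metallothionein, Mtf1, SLC30 and SLC39 genes (y axis), with blue points for LSK, brown squares for GMP and bars for the SE of the fit; filled points passed an adjusted p of 0.05, and grey diamonds mark the LSK values that chose Mt1 and Mt2 and were not tested. Mt1 and Mt2 lie at 1.62 to 4.43, and the transporters lie between -0.68 and 0.50.

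Genes that share inducers with the metallothioneins were read from lists by inducer. These lists were chosen with earlier results of these data known, so their counts are descriptions. Of 11 copper-handling genes measured, 0 rose and 1 fell in GMP (Commd1, by 0.55, limma adjusted p 0.0497), and 0 passed in LSK, against 16.1% and 4.44% of all genes. At an unadjusted p under 0.05, 1 was higher and 3 lower in GMP, and 0 passed in LSK. The Commd1 call was lost in 10 of the 12 fits without 1 array, with adjusted p-values of up to 0.162. Among 13 measured targets and regulators of the oxidant-sensing factor NRF2, 2 rose and 1 fell in GMP, and 2 rose in LSK, against 16.1% and 4.44% of all genes past the threshold either way. At an unadjusted p under 0.05, 3 were higher and 1 lower in GMP, and 4 were higher and 2 lower in LSK. Hmox1, the heme-degrading oxygenase, rose in GMP by 2.43 (SE 0.20, limma adjusted p 4.64e-06), from 6.28 to 6.81 in wild-type to 8.74 to 9.24 in knockout arrays. In LSK the Hmox1 difference was 0.09 (SE 0.20, limma adjusted p 0.903), and the effects differed by -2.34, LSK minus GMP (limma adjusted p 8.55e-04). Slc7a11, the cystine importer subunit, rose in LSK by 0.80 (SE 0.16, limma adjusted p 0.0144, or 0.0541 and 0.0675 without knockout LSK replicate 2 or wild-type LSK replicate 3). The remaining calls, Osgin1 up and Keap1 down in GMP and Nfe2l2 up in LSK, had limma adjusted p-values of 0.0362, 0.0493 and 0.0398 and were lost in 5, 11 and 9 of the 12 fits without 1 array. The median of the list was 0.14 in GMP and 0.06 in LSK.

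Of 10 glucocorticoid-induced genes measured, 6 rose in GMP and 4 in LSK, and 0 fell in either, with medians of 0.75 and 0.56. Over all genes, 5.78% rose in GMP and 2.49% in LSK. The list was chosen with earlier results of these data known, and no test set it against other genes. Sgk1, a kinase of ion transport, rose by 2.52 in GMP (SE 0.21, limma adjusted p 5.71e-06) and by 1.09 in LSK (SE 0.21, limma adjusted p 0.00866). Per1, of the circadian clock, rose by 0.79 and 0.75 and Klf9 by 0.71 and 0.69, and both passed in both populations. Tsc22d3, which encodes GILZ, rose by 0.97 in GMP, where the phosphatase gene Dusp1 rose by 2.38 and the RNA-decay factor gene Zfp36 by 1.44. Their LSK differences of 0.21, 0.75 and 0.81 did not pass. The Zfp36 adjusted p of 0.0147 became 0.0502 without knockout GMP replicate 3, 0.0588 without wild-type GMP replicate 2 and 0.0538 without wild-type GMP replicate 3. Fkbp5, the co-chaperone of the glucocorticoid receptor, rose by 0.34 in LSK (limma adjusted p 0.0392) and differed by -0.09 in GMP. Its LSK call was lost without any 1 LSK array or any 1 wild-type GMP array (0.0559 to 0.171). At an unadjusted p under 0.05 the list had 6 genes higher in each population and 0 lower.

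Among 12 genes listed as tied to STAT3 or the acute phase, 5 rose in GMP and 1 in LSK, and 0 fell, with medians of 0.22 and 0.33. Over all genes, 5.78% and 2.49% rose. Socs3, the feedback inhibitor of cytokine receptors, rose by 0.89 in GMP (SE 0.18, limma adjusted p 0.00486) and by 1.14 in LSK (SE 0.18, limma adjusted p 0.00295). Pim1, a survival kinase, rose by 1.41 in GMP (SE 0.13, limma adjusted p 1.09e-05), and its LSK difference of 0.39 did not pass. Junb rose by 0.59 in GMP (limma adjusted p 0.0122, or 0.0698 without wild-type GMP replicate 2). Il4ra and Stat3 rose by 0.47 and 0.33 there, with limma adjusted p-values of 0.0297 and 0.0308 that missed the threshold with arrays centred on their gene median (0.0663 and 0.0879), in the 2-group fit (0.0991 and 0.108) and without knockout GMP replicate 2 (0.0876 and 0.0930) or wild-type GMP replicate 2 (0.107 and 0.0791) or 3 (0.0902 and 0.0818). Stat3 also missed it without wild-type GMP replicate 1 (0.0919). At an unadjusted p under 0.05, 5 genes of the list were higher and 1 lower in GMP, and 5 were higher and 0 lower in LSK.

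**Figure D5:**
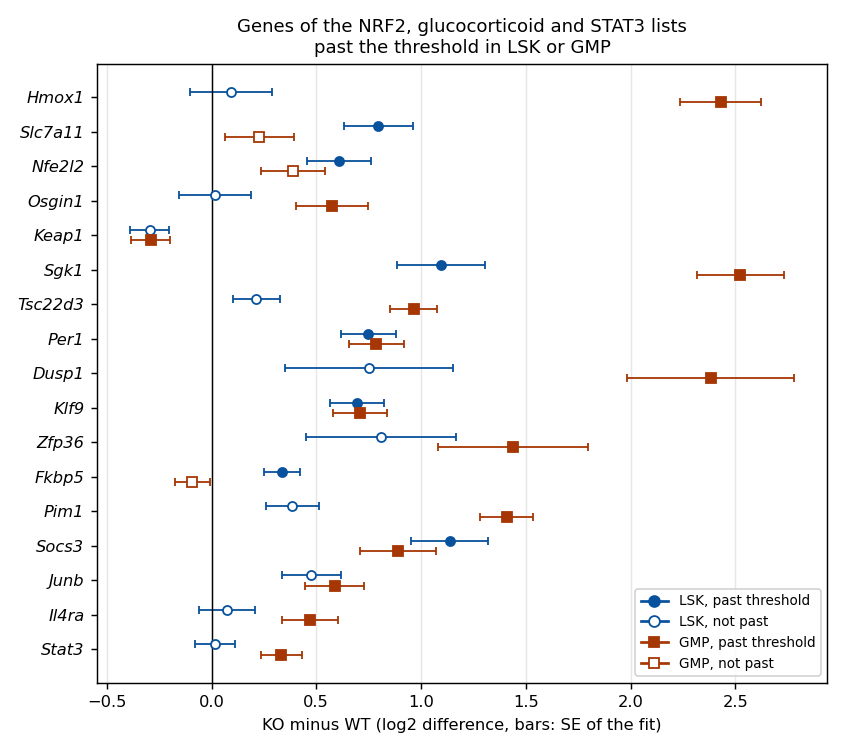
Knockout minus wild-type difference in log2 intensity (x axis) in LSK (blue) and GMP (brown) for the genes of the NRF2, glucocorticoid and STAT3 lists that passed in either population, with bars for the SE of the fit and filled points past an adjusted p of 0.05. The genes were picked for passing, so the plot shows sizes and not how often a list moved; Hmox1, Sgk1 and Dusp1 in GMP lie farthest to the right, at 2.43, 2.52 and 2.38.

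Genes whose intensity followed each of the 5 over the 12 arrays were ranked by Pearson's r, as a description, since the arrays share 4 groups and genotype moves many genes. Mt1 was followed most closely by Lamp2, a lysosomal membrane protein gene (r = 0.966), Wdr26 (0.952) and the tyrosine kinase gene Tec (0.950). Mt2 was followed by the lipid-transfer gene Osbpl8 (0.954), the Y-linked Eif2s3y (0.944) and Mvb12b (0.939), a subunit of the ESCRT-I sorting complex. Lamp2 ranged over 9.49 to 9.63 in wild-type LSK, 10.20 to 10.25 in knockout LSK, 9.90 to 10.12 in wild-type GMP and 10.21 to 10.47 in knockout GMP. For Mtf1 they were the potassium channel gene Kcnj2 (0.969), Spcs3 (0.964) and Kctd20 (0.960), and for Slc39a10 the dynein light chain gene Dynlt3 (0.990), Casd1 (0.982) and Plcb4 (0.979). The closest to Slc30a1 were Tcl1b2 (0.910), Arhgef38 (0.908) and Bco1 (0.908), and the Tcl1b2 arrays lay between 2.94 and 3.68.

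The deletion and the sorted identity were checked on the same arrays. Lamtor2 was at 4.95 to 5.77 on the knockout arrays and at 10.31 to 10.82 on the wild-type arrays, and it fell by 5.54 in GMP and 4.97 in LSK (limma adjusted p 8.74e-10 and 3.65e-09). The summed intensity of 12 LSK and stem cell markers was 14629 to 15089 on wild-type LSK and 4968 to 5928 on wild-type GMP arrays. On knockout arrays it was 12981 to 14408 in LSK, wholly below wild-type LSK, and 4177 to 7402 in GMP. The sum of 6 erythroid markers was 1834 to 2388 on wild-type and 1091 to 1209 on knockout GMP arrays. For 10 neutrophil maturation markers the sum varied widely between arrays of every group. In LSK it was 4544 to 16994 in wild type and 4611 to 17525 in knockout. In GMP it was 4281 to 17668 and 5714 to 22070. The sum of 6 megakaryocyte and platelet markers was 1178 to 1788 in wild-type and 769 to 1217 in knockout LSK. In GMP it was 516 to 654 and 592 to 815. The part of these cell types in the values of the 5 genes was not tested. The sum of 10 GMP and primary granule markers was 6537 to 9914 on wild-type LSK and 41738 to 44883 on wild-type GMP arrays. On knockout LSK arrays the granule sum was 11646 to 17545, above wild-type LSK, and on knockout GMP arrays it was 33332 to 37828. GMP knockout replicate 1 stood apart, with a limma array weight of 0.19 and a mean correlation of 0.979 with its group. The Mt1 and Mt2 rise in GMP passed without it and without each other array in turn.

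Markers of macrophages, which also make metallothionein, moved with the same comparison. Of 15 measured, 8 rose in GMP (Cd68, C1qa, C1qb, C1qc, Mrc1, Siglec1, Mertk and Axl) and 4 in LSK (Cd68, C1qb, C1qc and Mertk), and 0 fell at the adjusted threshold (1 was lower in GMP and 0 in LSK at an unadjusted p under 0.05). Over all genes, 5.78% rose in GMP and 2.49% in LSK. The markers' summed linear intensity was 1957 to 2025 in wild-type GMP and 7574 to 10753 in knockout GMP, and 1070 to 1237 in wild-type LSK and 2220 to 4940 in knockout LSK. Adgre1, Csf1r, Marco, Timd4, Vcam1, Cd163 and Fcgr1 did not pass in either population. In knockout LSK the array with the highest macrophage sum, replicate 2 at 4940, had Mt1 at 11.19 and Mt2 at 10.37, and the array with the lowest, replicate 1 at 2220, had 11.70 and 11.57. In knockout GMP the sum was lowest on replicate 1 at 7574, where Mt1 and Mt2 were highest. It was 8771 on replicate 2, where both were lowest. The highest sum was 10753 on replicate 3, where both lay in between. Replicate 1 was also the highest array for both genes in the wild-type groups. Of 9 mast cell and basophil markers, 4 rose in LSK (Cpa3, Ms4a2, Mcpt8 and Hdc) and 3 in GMP (Cpa3, Mcpt8 and Kit), with sums of 3927 to 4430 in wild-type and 5347 to 8458 in knockout LSK, and of 4825 to 6356 in wild-type and 7434 to 14580 in knockout GMP. Kit encodes c-kit, on which both populations were sorted, so its rise does not mark these cells. Kit and Gata2 belong to the stem cell list too, and both enter the mast cell and basophil sums. In knockout LSK the mast cell and basophil sum was highest on replicate 1, at 8458, the array with the highest Mt1 and Mt2, and was 5347 and 6219 on replicates 2 and 3. In knockout GMP it was 7434, 14580 and 8380 on replicates 1, 2 and 3, highest on the array where Mt1 and Mt2 were lowest. The part of either cell type in the metallothionein values was not tested.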

How the data were processed

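RNA of sorted LSK and GMP cells was amplified, biotin-labelled and hybridised to 12 Affymetrix arrays. Per the submitters' processing notes, the authors processed the arrays with RMA. No source used here names its version or a genome build. The scale of the deposited table, log2 intensity, was inferred from its range: array medians were 5.96 to 6.18 and maxima 14.01 to 14.20. That number of arrays limits the precision. Of 34760 probe sets, 21640 had 1 gene symbol, 1321 had several and the rest were not named, and the set with the highest mean over all arrays stood for each of the 954 genes with several.

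One limma fit (3.58.1, R 4.3.3) of 4 group means gave 5 contrasts, with 8 residual degrees of freedom and Benjamini-Hochberg adjustment over 19937 genes. Named genes were the 5 genes, Lamtor2, listed genes past 0.05 in either knockout comparison (at most 8 a list) and the 3 genes most correlated with each of the 5. Exceptions are stated. The genes and lists were chosen with earlier results of these data known. The fit was tested on simulated data. Alternatives were quantile normalization, centring, a 30% filter on dim genes, the mean of probe sets, trended robust eBayes, array weights, 2-group fits, replicate blocks and leaving out each array. Same-numbered LSK and GMP arrays of a genotype, which could share a mouse, correlated in their deviations between -0.027 and 0.18 in wild type. In knockout these correlations were -0.18 to 0.15. So few arrays cannot settle whether the numbers pair them, and they were not taken to do so. Promoter sequences are RefSeq's, on GRCm38.p6.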

Additional observations from a re-analysis of the deposited data

Results flagged for a closer look

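For 6 genes of the lists other than cell type markers, the knockout effect differed between LSK and GMP. The test was limma's interaction contrast with Benjamini-Hochberg adjustment over all genes, of which 7.98% passed. By list, 1 of 13 NRF2, 1 of 12 STAT3, 1 of 14 SLC39, 0 of 10 SLC30 and 0 of 11 copper-handling genes passed. Of 10 glucocorticoid-induced genes, 1 passed with a positive and 2 with a negative difference. Differences are the LSK effect minus the GMP effect on the log2 scale. The value was -2.34 for Hmox1 (adjusted p 8.55e-04), with effects of 0.09 in LSK and 2.43 in GMP. Sgk1 had -1.43 (0.0115), rising in both populations, and Pim1 had -1.02 (0.00508), with effects of 0.39 and 1.41. Tsc22d3 had -0.75 (0.0125), with effects of 0.21 and 0.97. Slc39a6 had 0.59 (0.0253), with effects of 0.47 in LSK and -0.12 in GMP, and Fkbp5 had 0.43 (0.0444), with effects of 0.34 and -0.09. Slc39a6 missed the threshold without wild-type GMP replicate 2 (0.0766), knockout LSK replicate 3 (0.0669) or wild-type LSK replicate 1 or 2 (0.0664 and 0.0562), and with quantile normalization repeated (0.41, adjusted p 0.0712). Fkbp5 missed it in every fit without 1 LSK or wild-type GMP array and without knockout GMP replicate 3 (0.0622 to 0.115), with quantile normalization repeated (0.30, adjusted p 0.163), with trended robust eBayes (0.0510) and with the replicate block (0.0745).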

How the results depend on the processing

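The rise of Mt1 and Mt2 in GMP passed under all 21 alternatives, with adjusted p-values of up to 0.0192 and 9.28e-04. Of the 5 genes, 4 passed in GMP under every alternative except the fit of the GMP arrays alone, where 2 did, and the fit without wild-type GMP replicate 2, where 3 did. The fit of 2 groups alone gave Mtf1 at -0.41 (adjusted p 0.0507) and Slc39a10 at -0.68 (0.0529) in GMP, 0 transporters past the threshold in GMP, and 1390, 1778 and 1327 genes past it for LSK, GMP and knockout LSK against knockout GMP, where the 4-group fit gave 886, 3212 and 3160. Array weights gave 1734 genes and 2 transporters in LSK. The Slc30a1 difference in GMP, -0.01, became 0.018 with quantile normalization and 0.017 with array weights. The cause of these shifts was not tested. With 1 array left out, the counts of genes ran from 455 (without knockout LSK replicate 3) to 1672 (without knockout GMP replicate 1) in LSK, 1853 (without wild-type GMP replicate 2) to 3628 in GMP, 800 to 2006 for the difference between the effects and 1667 to 4044 between the knockout populations, and those of transporters from 0 to 2 in LSK and 1 to 6 in GMP. Slc30a1 ran from -0.019 to 0.12 in LSK, -0.052 to 0.015 in GMP and -0.0063 to 0.13 for the difference between them, Slc39a10 in GMP from -0.82 to -0.48, and Mt2 between the knockout populations from -0.64 to 0.087. With the replicate number as a replicate block, 852 genes passed in LSK and 3073 in GMP. Of the genes named, the block moved Slc39a10 past the threshold for the difference between the effects (0.0461) and between the wild-type populations (0.0130), and Osgin1 and Keap1 in GMP, Slc39a2 in GMP and Fkbp5 in LSK and for the difference out of it. A block of arrays with the same genotype and number had a consensus correlation of -9.16e-05. No alternative moved the median of all genes by over 0.1.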
